A study of Mus musculus with 4 samples.

Results

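The sarcomeric myosin heavy chains are the motor proteins of the thick filament in striated muscle, and 9 genes of the deposited expected count table of 51826 rows encode them: Myh1, Myh2, Myh3, Myh4, Myh6, Myh7, Myh7b, Myh8 and Myh13. They were taken by gene symbol, though with earlier results of these data known, and each matched 1 row. RNA was measured by polyA-selected RNA-seq in whole quadriceps of 2 WT mice and 2 Mef2dα2 Eko mice, 1 library per mouse, in sedentary males of about 20 weeks. Mef2dα2 Eko mice carry a CRISPR-Cas9 deletion of the muscle-specific α2 exon of Mef2d in every cell from the germline on, so the change is not limited to muscle. The alternative α1 exon remains in their Mef2d gene, and which founder line gave these mice is not stated in the labels. WT mice of the colony are littermates, on the same C57BL6/J background, from crosses of heterozygous parents.

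Each muscle fibre builds its thick filaments mainly from 1 or a few of these heavy chains, and the chain sets how fast the fibre shortens. In adult limb muscle of mice, Myh4 marks the fastest fibres (type 2B), Myh1 the next (2X), Myh2 the fast oxidative fibres (2A) and Myh7 the slow fibres (type 1). Myh3 and Myh8 are the embryonic and neonatal chains, Myh6 the main chain of the adult mouse heart, Myh13 the chain of fast eye muscles, and Myh7b an ancient relative with little protein in limb muscle. MEF2 factors, of which MEF2D is one, bind an A/T-rich site in the control regions of many muscle genes. The comparison asks whether the mix of heavy chains in quadriceps differs when the α2 form of MEF2D cannot be made.

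The genes lie in 3 places of the GRCm38 genome, by GENCODE M21. Myh3 (chr11:67078300-67102291), Myh2 (chr11:67171027-67197517), Myh1 (chr11:67200052-67224575), Myh4 (chr11:67238029-67260446), Myh8 (chr11:67277124-67308634) and Myh13 (chr11:67321658-67371586) follow each other on the plus strand of chromosome 11. Myh6 (chr14:54941921-54966927) and Myh7 (chr14:54970684-54994626) are neighbours on the minus strand of chromosome 14. Myh7b (chr2:155611212-155634307) stands alone on the plus strand of chromosome 2. The coding transcripts used for length have 39 to 42 exons and 6016 to 6230 bases, so length differs little between members.

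The promoters of the adult fast genes and of neonatal Myh8 are shown because these 4 neighbours share sequence there and include the members that carry nearly all of the reads. All 9 members have a promoter window in the RefSeq table (GRCm38.p6), which runs from 250 bases before to 50 bases after the annotated start, and Myh7 has a pair of them. Capitals mark the longest exact stretch found in all 4 windows (TTCTAATTATATCC, 14 bases), matches to the MEF2 consensus, and TATAAA on either strand, which can overlap the MEF2 match. The 4 stretches below are on the plus strand, 5′ to 3′.
Myh2, chr11:67170842-67171051: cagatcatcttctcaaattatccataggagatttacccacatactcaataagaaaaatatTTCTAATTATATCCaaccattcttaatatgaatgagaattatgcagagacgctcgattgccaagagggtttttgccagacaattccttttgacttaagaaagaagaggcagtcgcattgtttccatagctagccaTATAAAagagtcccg
Myh1, chr11:67199882-67200091: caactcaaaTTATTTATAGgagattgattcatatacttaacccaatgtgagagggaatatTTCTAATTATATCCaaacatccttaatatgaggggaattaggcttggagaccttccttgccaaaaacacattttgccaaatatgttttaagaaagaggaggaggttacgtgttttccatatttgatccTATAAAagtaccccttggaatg
Myh4, chr11:67237594-67237803: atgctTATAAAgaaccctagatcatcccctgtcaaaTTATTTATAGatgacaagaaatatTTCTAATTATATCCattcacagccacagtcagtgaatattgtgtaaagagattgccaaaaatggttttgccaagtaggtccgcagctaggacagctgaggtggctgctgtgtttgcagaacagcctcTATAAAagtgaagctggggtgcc
Myh8, chr11:67277010-67277173: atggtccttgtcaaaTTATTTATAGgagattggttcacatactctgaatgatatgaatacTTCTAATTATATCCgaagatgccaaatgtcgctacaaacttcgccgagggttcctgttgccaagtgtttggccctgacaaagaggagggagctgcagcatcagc
The common stretch was the sole set of letters chosen from these windows, so its rarity is a description: it occurs in 4 of the 32851 promoter windows of the table (0.0122%), and these are the windows of the 4 genes. It begins at position -158 of Myh4, -160 of Myh1, -125 of Myh2 and -54 of Myh8, counted from the RefSeq start, which is the GENCODE start given above for Myh2 and Myh8 but not for Myh1 or Myh4. In Myh2, Myh1 and Myh4 the exact match extends to 20 bases.

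A match to the MEF2 consensus, searched on both strands, was present in the windows of 3 members, Myh4, Myh1 and Myh8, and in 3.19% of all promoter windows. The matched letters were the same in the 3 genes, TTATTTATAG, with first bases at -182 in Myh4, -211 in Myh1 and -99 in Myh8. The Myh2, Myh3, Myh6, Myh7, Myh7b and Myh13 windows hold no such letters. TATAAA, on either strand, was present in 6 members (Myh1, Myh2, Myh3, Myh4, Myh6 and Myh8) and in 13.6% of all windows. The MCAT letters CATTCC, bound by TEAD factors, were found in 4 members (Myh1, Myh4, Myh6 and Myh7) against 14.7% of all windows. The E-box CANNTG, bound by MyoD-type factors, was found in 7 members against 72.3%, and the CArG box in 2 members, Myh4 and Myh13, against 1.63%. The Myh13 window, chr11:67326853-67327152, lies inside the gene span given above, away from its GENCODE start. These are matches of letters within short windows, and no binding was measured here.

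MicroRNAs lie within 4 members, Myh3, Myh6, Myh7 and Myh7b, and the mature sequences of 3 are shown because these are known as a family made from heart and slow-muscle myosin genes. Myh6 hosts miR-208a, Myh7 hosts miR-208b and Myh7b hosts miR-499, from RefSeq on GRCm38.p6, with the seed (bases 2 to 8) in capitals.
miR-208a-3p, chr14:54949072-54949093: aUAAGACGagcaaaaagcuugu
miR-208b-3p, chr14:54975710-54975731: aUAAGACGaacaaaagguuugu
miR-499-5p, chr2:155622893-155622913: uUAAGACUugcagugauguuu
The miR-208a and miR-208b arms share 1 seed, and the miR-499 seed is another. The gene rows of these 3 hairpins, and of Mir6923 within Myh3, held 0 counts in all 4 libraries, where 3 counts correspond to 0.0348 to 0.0419 CPM, the library-scaled count used throughout. PolyA libraries capture hairpin or mature microRNAs poorly, so these rows say nothing of the mature microRNAs.

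The members resemble each other enough for reads to fit several of them. Over aligned bases, the transcripts of Myh1 and Myh2 are 90.2% identical, those of Myh1 and Myh4 89.6% and those of Myh6 and Myh7 90.5%, and Myh7b is 68.8% to 72.8% identical to the others. The longest exact run is 268 bases between Myh1 and Myh2, 245 between Myh6 and Myh7 and 161 between Myh1 and Myh4. Of all windows of 75 bases, 9.68% in Myh4, 16.6% in Myh1, 16.3% in Myh2, 15.5% in Myh6 and 15.3% in Myh7 also occur in another member, and none in Myh7b. At 150 bases the shares are 0.511% for Myh4, 2.49% for Myh1, 2.06% for Myh2, 5.53% for Myh6 and 5.43% for Myh7. Reads within such windows were divided between genes by the model of RSEM, so the small counts next to Myh4 are less certain than their size alone implies. For Myh13 the share was 5.13% at 75 bases, and for Myh8 12.9%.

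**Figure D1:**
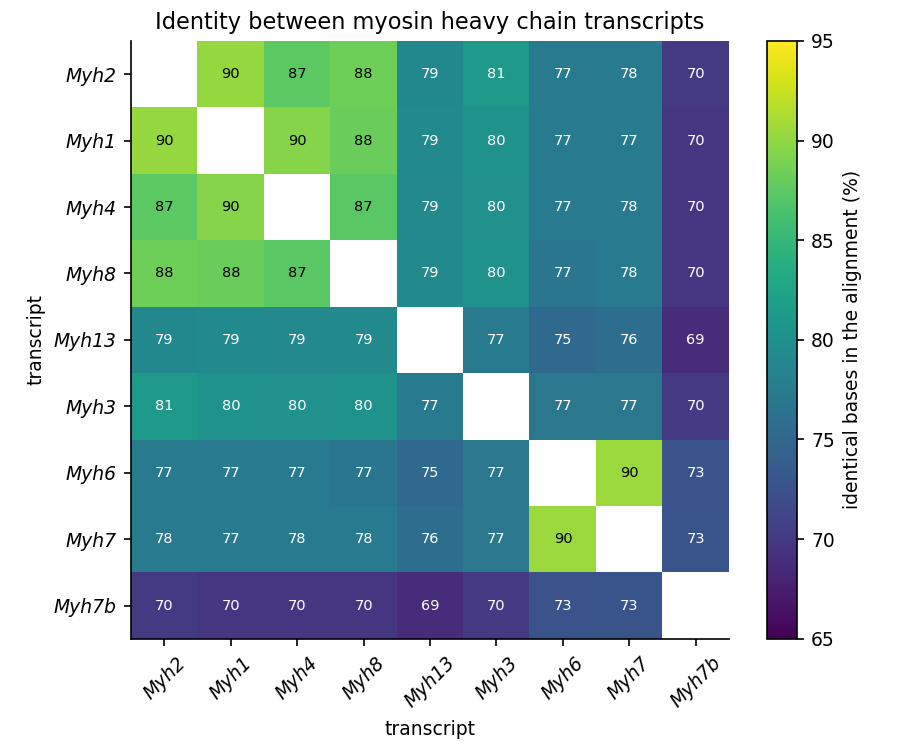
Percent of identical bases in pairwise alignments of the longest coding transcript of each member, with each transcript on both axes and colour from 65 to 95%. Myh2, Myh1, Myh4 and Myh8 form 1 block of high identity and Myh6 with Myh7 another, while Myh7b is the most distant from all others.

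Library totals ran from 72626757 to 85176059 expected counts, and the members together took 7.03% to 7.28% of them. The targeted gene itself cannot be checked by exon here: Mef2d as a whole read 259 and 227 CPM in WT and 252 and 241 CPM in Eko mice, a log2 fold change of 0.02 ± 0.083 (SE), and a count per gene adds both alternative exons together. Of the skeletal muscle fibre markers (Ckm, Acta1, Mylpf, Tnnt3 and Des) all 5 were high in all libraries, with summed levels of 48090 to 51504 CPM. WT mouse 1 stood apart from the rest, with a chi-square per degree of freedom of 90.8 to 164 against the other libraries, compared with 27.4 to 32.3 among the other 3. Its adipocyte markers summed to 80.1 CPM, against 30.7 CPM in WT mouse 2 and 25.8 and 11.2 CPM in the Eko mice. The main values below are therefore also given without it, and then the remaining WT mouse is assumed to vary like the Eko mice.

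Levels between genes are compared as CPM per kb of the longest coding transcript, means over the 4 mice. Myh4 led with 10960 ± 413 (SD, n = 4), followed by Myh1 at 639 ± 132, Myh2 at 230 ± 49.7, Myh7 at 33.5 ± 16.3 and Myh6 at 10.6 ± 4.68 CPM per kb. The ranges of these 5 did not overlap, although the lowest Myh7 value (18.1) and the highest Myh6 value (17.4), both in WT mouse 1, nearly touched. Myh13 (0.420 ± 0.128), Myh8 (0.418 ± 0.122), Myh7b (0.411 ± 0.0682) and Myh3 (0.292 ± 0.054 CPM per kb) formed a low group whose ranges overlapped, and their order is not resolved. All 9 members passed the filter on low counts.

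**Figure D2:**
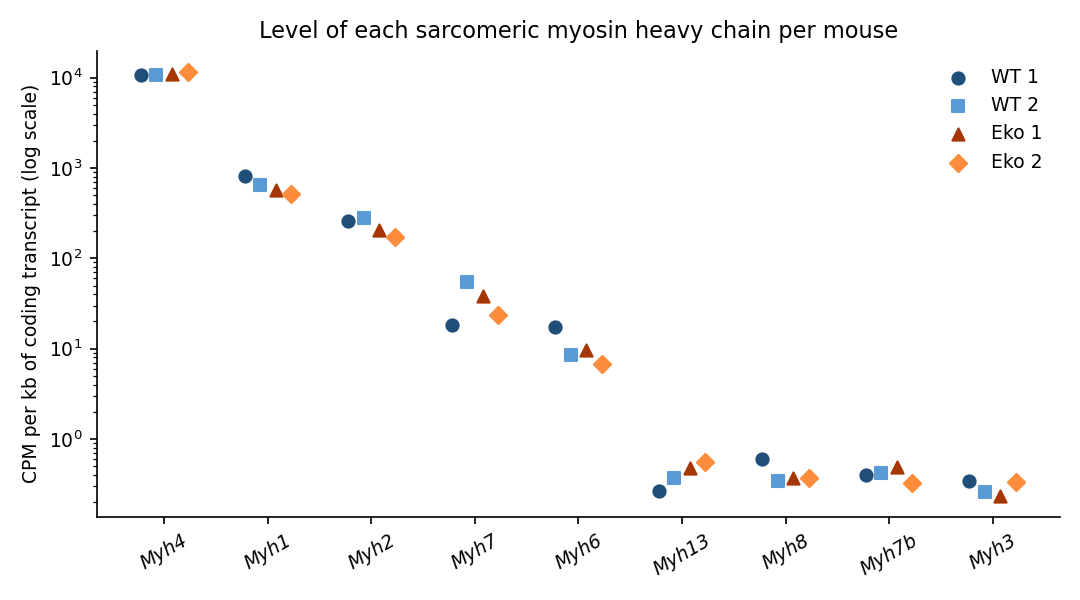
Level of each member in each mouse, in CPM per kb of coding transcript on a log axis, with circles and squares for the WT mice and triangles and diamonds for the Eko mice. Myh4 lies near 10960 in all 4 mice, Myh1 and Myh2 are lower in both Eko mice than in both WT mice, and the last 4 members lie below 1.

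None of the 9 members passed an adjusted p of 0.05 between the genotypes in edgeR's quasi-likelihood test over 16120 genes, where 67 genes passed (0.416%), 50 lower and 17 higher in Eko mice. At an unadjusted p below 0.05, 3 members counted (Myh1, Myh2 and Myh13) against 11.6% of all genes. In 4 members (Myh1, Myh2, Myh4 and Myh13) both mice of a genotype lay on the same side of both mice of the other, against 43.8% of all genes. The median log2 fold change over the members was -0.24, beside -0.01 over all genes tested. With DESeq2 over the same genes, in which 1.97% of genes passed, 2 members passed, Myh1 (adjusted p = 0.0137) and Myh2 (adjusted p = 0.00045), both lower in Eko mice. Fewer fibres of a type and less RNA per fibre cannot be told apart in whole muscle.

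Myh4, the 2B chain, was the main heavy chain of all 4 muscles and read nearly alike in the genotypes. It read 64343 and 64345 CPM in WT mice and 65444 and 69570 CPM in Eko mice. Both Eko values were above both WT values by a small margin. The log2 fold change was 0.07 ± 0.095 (SE), with a 95% confidence interval from -0.16 to 0.29 and an adjusted p of 0.825 in edgeR's test.

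Myh1, the 2X chain, read 4966 and 3983 CPM in WT mice and 3475 and 3120 CPM in Eko mice. Both Eko mice were below both WT mice, and the highest was WT mouse 1. The Eko level was 0.737 of WT (95% confidence interval 0.603 to 0.900), a log2 fold change of -0.44 ± 0.122 (SE) with an adjusted p of 0.261 in edgeR's test over all genes. Without WT mouse 1 the log2 fold change was -0.27 (adjusted p = 0.389), and without WT mouse 2 it passed at -0.58 (adjusted p = 0.0218).

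Myh2, the 2A chain, read 1576 and 1709 CPM in WT mice and 1264 and 1040 CPM in Eko mice. Again both Eko mice lay below both WT mice, and here WT mouse 2 was the highest. The Eko level was 0.702 of WT (0.587 to 0.838), a log2 fold change of -0.51 ± 0.108 with an adjusted p of 0.161 by the same edgeR test. Without WT mouse 1 the log2 fold change was -0.57 (adjusted p = 0.0976), and without Eko mouse 1 it passed at -0.65 (adjusted p = 0.00704).

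**Figure D3:**
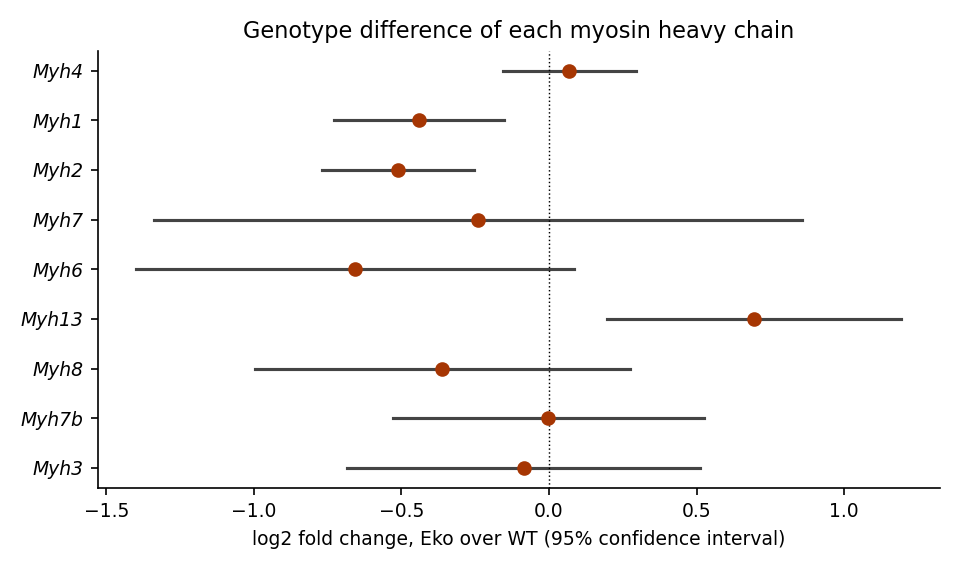
Log2 fold change of each member, Eko over WT, as points with 95% confidence intervals that are not adjusted for the number of genes. The intervals of Myh1, Myh2 and Myh13 leave out 0, none passed the adjusted threshold, and Myh6 and Myh7 have the widest intervals.

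As shares of the summed counts of the 9 members, Myh4 took 90.48% and 91.35% in WT mice and 92.84% and 94.11% in Eko mice. Its mean was 90.9% ± 0.617 in WT and 93.5% ± 0.893 in Eko mice (SD, n = 2), a difference of 2.56 percentage points. Every mouse kept Myh4 above 90%. The exact two-sided permutation test gave p = 0.33, which is the smallest that 2 mice against 2 can give (0.75 after Benjamini-Hochberg adjustment over the 9 members), so no share can pass 0.05 here. Without WT mouse 1 the difference was 2.12 points.

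Myh1 took 6.98% and 5.66% of the myosin counts in WT mice and 4.93% and 4.22% in Eko mice, a mean difference of -1.74 points, or -1.08 points without WT mouse 1. Myh2 took 2.22% and 2.43% in WT and 1.79% and 1.41% in Eko mice, a difference of -0.721 points, or -0.826 points without WT mouse 1. These differences and that of Myh4 are parts of 1 whole and are not separate evidence. Together Myh4, Myh1 and Myh2 made up 99.68% and 99.43% of the counts in WT and 99.57% and 99.73% in Eko mice, with no separation of the genotypes. The counting error on such shares is small: for Myh1 in WT mouse 1 the 95% Wilson interval ran from 6.961% to 7.004%, for counting error only.

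**Figure D4:**
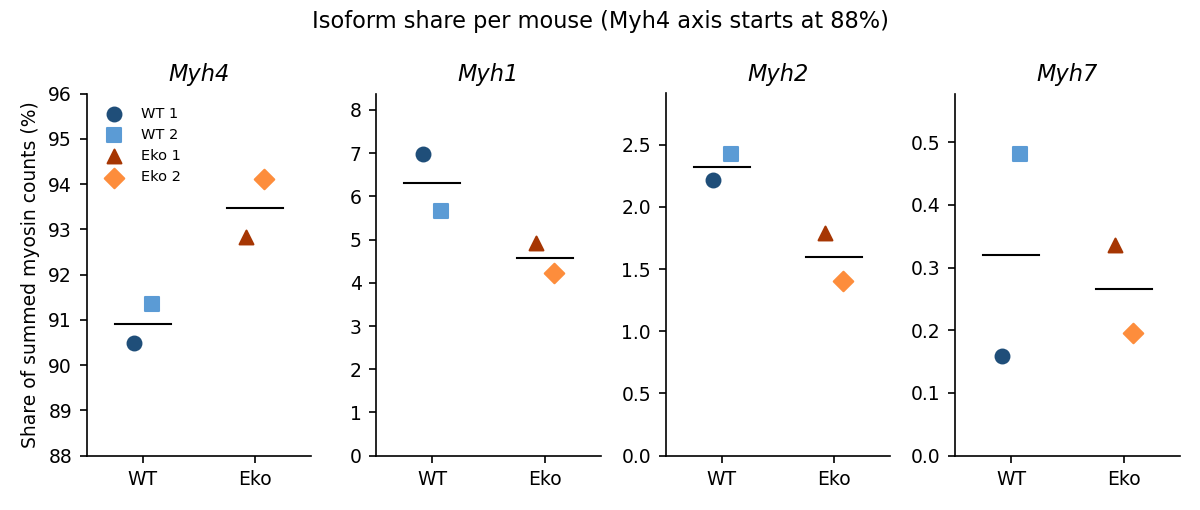
Share of Myh4, Myh1, Myh2 and Myh7 in the summed counts of the 9 members, in percent for each mouse, with a line at the mean of each genotype. The Myh4 axis starts at 88% and the others at 0. Myh4 is above 92% in both Eko mice and below in both WT mice, Myh1 and Myh2 are lower in both Eko mice, and the Myh7 values of the genotypes overlap.

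Set against Myh4 alone, Myh1 reached 7.72 and 6.19 counts per 100 Myh4 counts in WT mice and 5.31 and 4.48 in Eko mice. For Myh2 the values were 2.45 and 2.66 in WT and 1.93 and 1.5 in Eko mice. Both ratios separated the genotypes (exact permutation p = 0.33 for each). The ratio of Myh2 to Myh1 did not separate them, with 31.7 and 42.9 Myh2 counts per 100 Myh1 counts in WT and 36.4 and 33.3 in Eko mice.

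Myh7, the slow chain, read 113 and 339 CPM in the WT mice and 237 and 145 CPM in the Eko mice. The WT mice enclosed both Eko mice, so the spread within WT was larger than any difference between genotypes. The log2 fold change was -0.24 ± 0.463 (95% confidence interval -1.34 to 0.86, adjusted p = 0.883 in edgeR's test). It was -0.83 without WT mouse 1 and 0.77 without WT mouse 2. As a share of myosin counts Myh7 made up 0.159% and 0.482% in WT and 0.337% and 0.196% in Eko mice.

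A group of 4 thin filament genes of slow fibres followed Myh7 from mouse to mouse, while other genes of the slow list did not. Tnnt1, Tnni1 and Tnnc1 encode slow troponins and Tpm3 slow tropomyosin, and these 4 were picked from the slow list with their values known. Their summed level in WT mouse 1, Eko mouse 1 and Eko mouse 2 was 36.4%, 80.1% and 47.9% of that in WT mouse 2, while Myh7 was at 33.3%, 69.9% and 42.8%. In contrast, Ankrd2, Csrp3 and Mb of the same list, also named with their values known, were highest in WT mouse 1, where Myh7 was lowest, and Myoz2 read 39.3 and 39.7 CPM in the WT mice. Among all tested genes, the 3 with the profile most like that of Myh7 over the 4 mice were Tnnc1 (root mean square difference 0.0893 in log2 CPM), Gm18706 (0.109) and Gm14276 (0.113), of which Gm18706 and Gm14276 read at most 0.30 CPM. Tnnc1 read 14.2 and 36.6 CPM in WT and 28.7 and 16.2 CPM in Eko mice. For Myh2 the nearest were Atp8b5 (0.0226), Gm20427 (0.0237) and Oas2 (0.0243), all at or below 1.43 CPM. With 4 mice such likeness is a description.

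**Figure D5:**
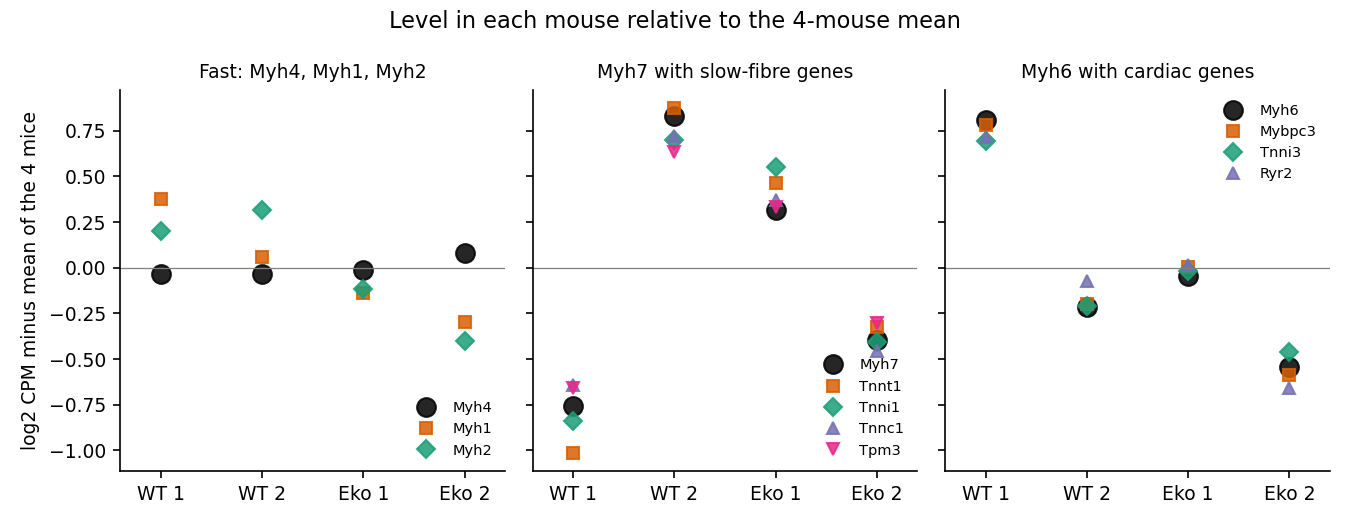
Log2 CPM of each gene minus its mean over the 4 mice, by mouse, for the adult fast chains (left), Myh7 with 4 slow-fibre genes (middle) and Myh6 with 3 cardiac genes (right). Myh7 and the 4 genes, picked with their values known, are highest in WT mouse 2 and lowest in WT mouse 1. No other gene of the same slow list (not plotted) has both features. Myh6 and its companions are highest in WT mouse 1.

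Myh6, the heart chain, read 106 and 52.3 CPM in WT mice and 58.9 and 41.6 CPM in Eko mice. WT mouse 1 was high and the other WT mouse lay between the Eko mice. The log2 fold change was -0.66 ± 0.312 (adjusted p = 0.482, edgeR), and -0.06 without WT mouse 1 (adjusted p = 0.954). Without WT mouse 2, which leaves WT mouse 1 as the sole WT library, it passed at -1.07 (adjusted p = 0.0167). Myh6 stood at 94.1 counts per 100 Myh7 counts in WT mouse 1, against 15.4 in WT mouse 2 and 24.8 and 28.7 in the Eko mice.

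Cardiac markers moved with Myh6. Of the 6 on the list, Mybpc3, Tnni3 and Ryr2 were above 2 CPM in every library, Nppa and Nppb were at or below 0.303 CPM, and Myl7, the atrial light chain, was at 0 in all 4. The summed list read 22.4 and 12.0 CPM in WT mice and 13.5 and 9.17 CPM in Eko mice, and Myh6 divided by it gave 4.76 and 4.35 in WT and 4.37 and 4.54 in Eko mice. Thus the level of Myh6 relative to these genes varied little while its CPM varied. The part of heart-type or other non-quadriceps tissue in this was not tested.

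Myh7b read 2.49 and 2.58 CPM in WT and 3.04 and 2.01 CPM in Eko mice, with a log2 fold change of -0.002 ± 0.222 (adjusted p = 0.999, edgeR). The Eko mice enclosed the WT mice. Trpc4ap, which overlaps Myh7b on the other strand, read 86.2 to 91.4 CPM over the 4 mice.

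The developmental chains were near the bottom of the range. Myh3, the embryonic chain, had 158 and 125 counts in WT and 123 and 143 in Eko mice, and Myh8, the neonatal chain, 280 and 170 in WT and 194 and 161 in Eko mice. The genotypes overlapped for both, with log2 fold changes of -0.09 ± 0.252 for Myh3 and -0.36 ± 0.267 for Myh8 (adjusted p = 0.929 and 0.656, edgeR). Without WT mouse 1 the Myh8 value was 0.10. Of 10 genes of immature or regenerating fibres, 7 could be tested and none passed. The 4 highest were Actc1 (96.7 and 55.9 CPM in WT, 150 and 163 CPM in Eko mice, log2 fold change 1.04, adjusted p = 0.172), Myod1, Chrna1 and Tnnt2, whose adjusted p-values were 0.672, 0.956 and 0.569.

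Myh13, the eye muscle chain, had the highest fitted log2 fold change of the 9 members. The WT mice held 123 and 183 counts and the Eko mice 249 and 244, or 1.62 and 2.26 CPM against 2.89 and 3.41 CPM. Both Eko values were above both WT values. The log2 fold change was 0.69 ± 0.211 (95% confidence interval 0.20 to 1.19, adjusted p = 0.297 in edgeR's test), and 0.48 without WT mouse 1 (adjusted p = 0.548). Its share of myosin counts was at most 0.0046%. Next to Myh4 with 4883754 counts or more in every mouse, counts of this size could be changed by few reads divided differently, and this was not tested.

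The noncoding genes within the clusters ranged from about the level of Myh6 to no counts, and some matched no symbol. The 2310065F04Rik transcript, in the chromosome 11 cluster, read 82 and 83 CPM in WT and 91.3 and 73.1 CPM in Eko mice (log2 fold change -0.01, adjusted p = 0.992, edgeR). The 9430073C21Rik transcript, which lies antisense to Myh2, had 441 and 375 counts in WT and 563 and 186 in Eko mice (log2 fold change -0.18, adjusted p = 0.890). Mhrt, antisense to Myh7, had 3 and 9 counts in WT and 7 and 3 in Eko mice. Myhas, antisense to Myh1, matched no symbol and has no value here. Strand use in counting is not stated, so reads of a gene and its antisense partner cannot be told apart with certainty.

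Among the other class II heavy chains, 1 of 4 genes tested was called. Myh10, a non-muscle heavy chain of the cytoskeleton, fell from 18.1 and 17.2 CPM in WT to 11.6 and 11 CPM in Eko mice, a log2 fold change of -0.64 ± 0.083 (adjusted p = 0.0463, edgeR). The call was lost without WT mouse 1 (-0.60, adjusted p = 0.0558) and without Eko mouse 2 (-0.60, adjusted p = 0.0551), and also with library totals alone (adjusted p = 0.0573) and when genes needed 1 CPM in 2 libraries (adjusted p = 0.0556). Myh14, Myh9 and Myh11 gave log2 fold changes of -0.21, 0.03 and 0.22 and did not pass (adjusted p = 0.311, 0.943 and 0.400). Myh11 also marks smooth muscle, whose summed 5 markers read 97.7 to 113 CPM.

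The proteins that assemble with the heavy chains gave 1 called gene. In the thick filament and M-band list 1 of 9 genes tested was higher and none lower, with a median log2 fold change of -0.04. The called gene was Mybph, a thick filament protein of the myosin-binding protein family, which rose from 65.9 and 64.1 CPM in WT to 147 and 156 CPM in Eko mice (log2 fold change 1.22 ± 0.069, adjusted p = 0.00855, edgeR), and it was called without WT mouse 1 as well (1.24, adjusted p = 0.00157). The most abundant of the list, Ttn and Mybpc2, gave 0.22 and -0.07 (adjusted p = 0.466 and 0.789). None of 10 myosin light chain genes tested was called, with Myl1 at -0.09 and Mylpf at 0.12 (adjusted p = 0.699 and 0.623), and none of 7 light chain kinase and phosphatase genes, with Mylk4 at 0.23 and Mylk2 at 0.36 (adjusted p = 0.520 and 0.178). None of 7 genes of myosin folding and turnover was called, with Smyd1 and Unc45b, which help fold the myosin head, at -0.14 and -0.03 (adjusted p = 0.510 and 0.889). In all 7 both mice of a genotype lay on the same side of both mice of the other, against 43.8% of all genes. Of these 7, 2 had a log2 fold change above 0, and the median was -0.13.

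The wider fibre-type lists did not separate by the test. None of the 10 slow fibre programme genes was called, 2 of them had a log2 fold change above 0, and the median was -0.34. The highest, myoglobin (Mb), read 1430 and 1302 CPM in WT and 1050 and 884 CPM in Eko mice, a log2 fold change of -0.50 with an adjusted p of 0.156, and Atp2a2, the slow calcium pump, gave -0.59 (adjusted p = 0.487). None of the 8 fast fibre programme genes was called either, 7 had a log2 fold change above 0, and the median was 0.11. Over all genes tested, 7858 of 16120 had a log2 fold change above 0. The fast calcium pump Atp2a1 gave 0.11 and troponin Tnnt3 0.11 (adjusted p = 0.692 and 0.733).

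None of 22 regulators of heavy chain choice was called, with a median of 0.07. The most abundant were Mef2c (0.002, adjusted p = 0.996), Nfix, a repressor of slow genes (-0.06, adjusted p = 0.831), Tbx15 (0.23, adjusted p = 0.347) and Tead1 (0.13, adjusted p = 0.603). None of the 5 muscle spindle genes was called, with a median of -0.06.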

How the data were processed

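Libraries were made by the authors from polyA RNA of 4 quadriceps with a TruSeq stranded kit, sequenced as read pairs, aligned to mm10 (STAR 2.6.1a is named in the submitters' processing notes) and counted with RSEM on the Ensembl annotation of GRCm38. The deposited values are expected counts per gene symbol, not normalized, and all were whole numbers; a strand setting is not given in the sources used here. Groups came from the sample labels. The genotypes were compared in edgeR 4.0.16 (R 4.3.3) by the quasi-likelihood test with TMM, filterByExpr and Benjamini-Hochberg adjustment at 0.05 over 16120 of 24621 genes with any count; genotype was the sole term. CPM use the TMM-scaled totals. DESeq2 1.42.0, limma-voom 3.58.1 and other alternatives are described in the closing section. The tests were checked on simulated counts. Shares were tested by an exact permutation test. Transcripts were aligned with Biopython (match 1, mismatch -1, gap opening -4, gap extension -0.5, free end gaps). Positions are from GENCODE M21, sequences from GENCODE and RefSeq. 

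All members were named. Of each list, called genes and up to 4 others in order of level could be named, beside genes within the myosin clusters and the 3 genes nearest in profile to Myh7 and Myh2. Some lists are given with fewer, and Tnnt1, Tnni1, Tnnc1, Tpm3, Ankrd2, Csrp3 and Myoz2 and the cardiac markers were named for their relation to a member. Members and lists were chosen with earlier results of these data known. The 2 replicate numbers are shared by the genotypes. The labels do not state a pairing of mice with the same number, so the main model has no block. Library totals of 72626757 to 85176059 make counting error small against the spread between mice, except for Myh3, Myh7b, Myh8 and Myh13, which had 123 to 280 counts. With 2 mice per genotype, p-values rest on a spread shared between genes.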

Additional observations from a re-analysis of the deposited data

How the results depend on the processing

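Of 144 values of single members under the alternatives, 120 kept their direction and their side of the threshold, 12 passed it where the main test did not, and 12 turned direction. The number of genes called moved from 67 to 318 with DESeq2 (309 without its independent filtering), 312 with edgeR's likelihood ratio test, 35 with library totals alone, 799 when low counts were not filtered, and 23 when genes needed 1 CPM in 2 libraries. It was 57 with limma-voom, 58 with RLE scaling, 64 with upper-quartile scaling, 58 with library totals without the members and 73 with GC correction, each with 0 members called. With the replicate number as a block it was 186, with 0 members called. The deviations of mice with the same number had a correlation of 0.162. Whether these mice were paired, as by litter, is not stated in the labels and was not tested. Leaving out 1 library gave 99 to 299 genes: 99 without WT mouse 1, 299 without WT mouse 2, 204 without Eko mouse 1 and 126 without Eko mouse 2. Members called went from 0 to 2 with DESeq2 (2 without its independent filtering), to 4 with no filter (Myh1, Myh2, Myh6 and Myh13) and to 1 with the likelihood ratio test (Myh2). Leaving out 1 library gave 0 to 2: Myh1 and Myh6 without WT mouse 2, and Myh2 without Eko mouse 1. The cause was not tested. Over all alternatives the log2 fold change ran from -0.58 to -0.27 for Myh1, from -0.65 to -0.38 for Myh2, from 0.03 to 0.13 for Myh4 and from 0.48 to 0.97 for Myh13, with adjusted p-values from 4.63e-06 to 0.454 for Myh1 and from 4.88e-08 to 0.27 for Myh2. Directions turned for Myh7b, at 0.004 with DESeq2 with and without independent filtering, 0.005 with RLE scaling, 0.01 with library totals without the members and 0.079 with GC correction. With 1 library left out, Myh7b ran from -0.32 to 0.26, Myh3 from -0.345 to 0.156, Myh7 from -0.826 to 0.774 and Myh8 from -0.698 to 0.099. With 2 mice per genotype, the 95% interval of the Myh7 log2 fold change ran from -1.34 to 0.86, so a difference of the size fitted for Myh1 or Myh2 could not be detected for it.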
